A study of Mus musculus with 16 samples.

Results

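The genes described here mark amacrine and horizontal cells, the inhibitory interneurons of the retina. They are 10 genes chosen by name, the transcription factors Prox1, Lhx1, Tfap2a, Tfap2b and Onecut1, the calcium buffers Calb1 and Calb2, the GABA-synthesizing enzymes Gad1 and Gad2, and the glycine transporter Slc6a9. All 10 were found among the 25905 genes of the deposited table, 8 by the same symbol and 2, Tfap2a and Tfap2b, under their older symbols Tcfap2a and Tcfap2b. RNA was sequenced from the right retinas of 8 spaceflight mice, which had lived on the International Space Station, and 8 ground control mice, which were kept on Earth in the same housing hardware. All were wild type C57BL/6 males, given in the labels as 10-week-old. The paper gives that age for the mice sent into flight, so the flown mice were older at collection. It gives no age at collection for either group. They had been back on Earth for more than a day when their eyes were collected. The deposited counts of the 16 libraries carry laboratory codes that could not be tied to a mouse or a group. The comparison of spaceflight with ground control is therefore not analysed here, and neither are values per mouse, their spread or the depth of each library. The level given for each gene is the authors' mean over all libraries of counts scaled by size factors, the mean normalized count, which pools both groups and has no SD. Summed over all genes, it came to 6995811.

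Horizontal cells receive input from photoreceptors and feed back on them at their first synapse, and amacrine cells shape the signals that bipolar cells pass to ganglion cells. Most amacrine cells release GABA or glycine, so the enzymes that make GABA and the transporter that recovers glycine are broad labels of the class. Transcription factors such as Prox1, Lhx1 and Onecut1 act in the choice and upkeep of horizontal cell fate, while Tfap2a and Tfap2b, of the AP-2 family, serve both cell types. Some of these genes are also used by other cells of the retina, such as Prox1 by bipolar cells and Calb2 by ganglion cells. In whole retina, fewer cells of a type and less RNA per cell cannot be told apart.

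The 10 genes fell into a more abundant and a less abundant part. A long transcript collects more reads than a short one, so genes are set against each other here per kilobase (kb) of the transcript that was counted. The enzymes, the transporter, the calcium buffers and Prox1 had levels from 119.5 to 1095 per kb, and the other 4 transcription factors from 10.7 to 23.1 per kb. On this scale Calb2 was the most abundant and Tfap2a the least, 102-fold lower. The median of the 10 genes was 129 per kb, and 6 of them, all but Onecut1, Tfap2b, Lhx1 and Tfap2a, lay above the median of 29.8 per kb over all 15907 genes that were detected, with a mean above 0, and had a known length. This number depends on the scale: it was 7 per kb of coding sequence, where Onecut1 also stood above the median, and 9 by mean normalized count with no length.

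**Figure D1:**
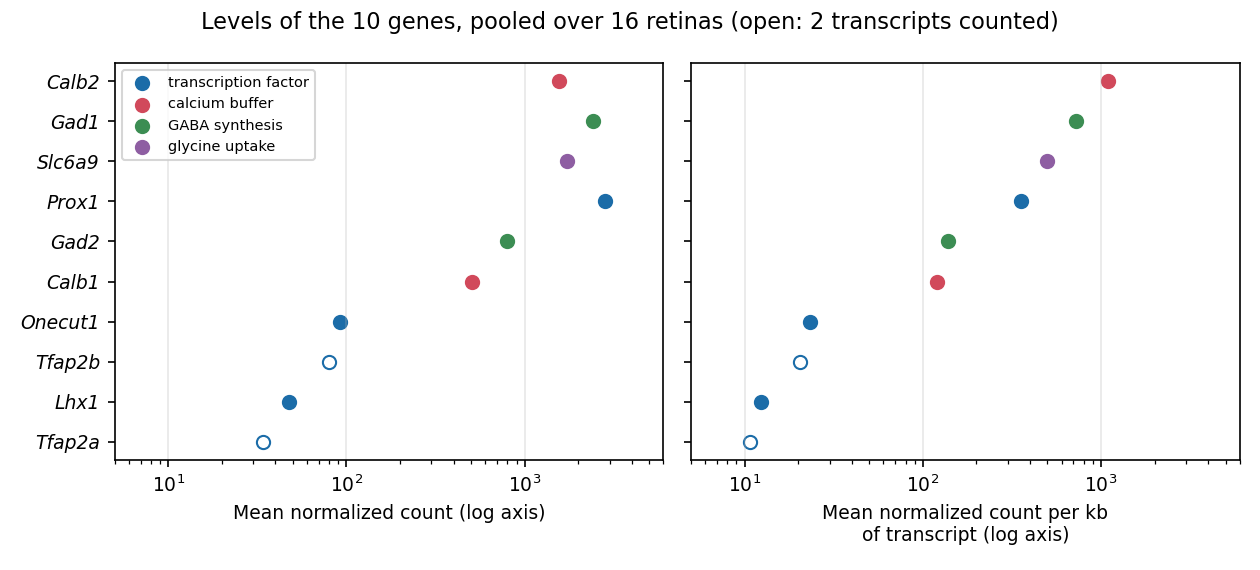
Levels of the 10 genes in retina, as the authors' mean over all 16 libraries (left, mean normalized count; right, the same per kb of transcript; both axes are logarithmic). Each point is 1 gene, coloured by role, and has no error bar because the values are pooled; Calb2 is highest per kb at 1095, while Prox1, whose transcript is the longest of the 10, comes first on the left at 2829, and the open points, Tfap2a and Tfap2b, are the genes counted over 2 transcripts.

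Prox1, a homeodomain factor found in horizontal cells, AII amacrine cells and some bipolar cells, had a mean normalized count of 2829. Its counted transcript is long, at 7913 bases, and per kb it came behind Calb2, Gad1 and Slc6a9, at 357, above 92.7% of the detected genes. The gene lies on chromosome 1 from 190118035 to 190170714 on the minus strand (GRCm38), and its counted transcript has 5 exons. Lhx1, a LIM-homeodomain factor of horizontal cells (chromosome 11, 84518284 to 84525535), had a mean normalized count of 47.7, or 12.4 per kb. Prox1 was 28.8-fold higher than Lhx1 on the per kb scale. Onecut1 acts upstream of Lhx1 in horizontal cell development. It lies on chromosome 9 from 74861921 to 74891781, and its count was 91.6, or 23.1 per kb, 1.87 times the level of Lhx1. The annotation places another gene, Gm20649, on the same strand over 54.9% of the bases of the Onecut1 transcript. That gene is not listed in the deposited table, and whether reads were shared between them was not tested.

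The AP-2 genes were the only members whose symbol stood for more than 1 counted transcript. The count table has a row for each transcript, and Tfap2a (chromosome 13, 40715302 to 40738376) and Tfap2b (chromosome 1, 19208914 to 19238576) had 2 rows each. Their mean normalized counts were 33.9 and 80.1. With the mean length of the 2 transcripts this was 10.7 per kb for Tfap2a and 20.5 per kb for Tfap2b. The transcripts of Tfap2b differ in length, 1946 and 5863 bases, and its level was 41.1 per kb by the shorter and 13.7 per kb by the longer, so whether it stood above or below Onecut1, and above or below the median of 29.8 per kb over detected genes, depends on that choice. The 2 transcripts of each gene overlap, sharing 94.6% of the bases of the shorter one in Tfap2a and 81.0% in Tfap2b. An unlisted gene on the opposite strand, Gm47061, also lies over 7.28% of the bases of the Tfap2a transcripts.

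Across the whole table, genes with several counted transcripts had much lower values. Of the coding genes with a known length, those at 0 included, 16702 had 1 counted transcript and a median level of 20.2 per kb, and 2146 had 2 and a median of 0.533 per kb. A mean normalized count under 10 was given for 38.5% of the first and 69.9% of the second. Tfap2a stood above 80.1% of the genes with 2 counted transcripts but above 45.0% of those with 1. For Tfap2b the shares were 86.2% and 50.2%. The part that counting by transcript had in the low values of the AP-2 genes was not tested. The other 8 genes had 1 counted transcript each.

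**Figure D2:**
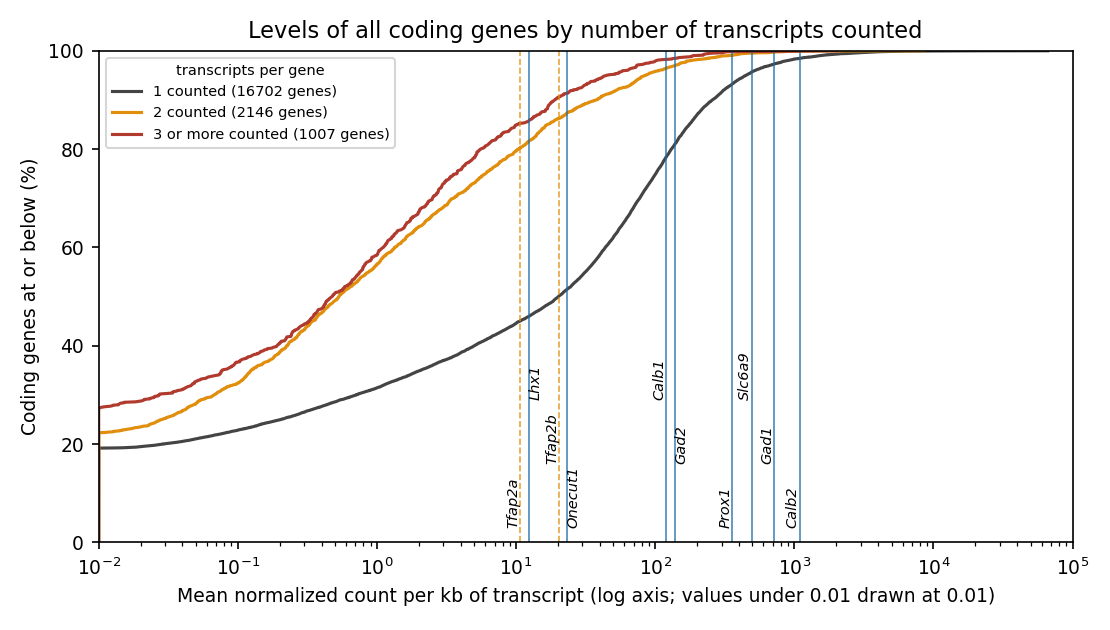
Cumulative share of coding genes (vertical axis, %) at or below a level per kb of transcript (horizontal axis, logarithmic, pooled over all libraries), with 1 curve for genes with 1, 2, and 3 or more counted transcripts. Vertical lines mark the 10 genes, dashed for Tfap2a and Tfap2b; the curve for 2 transcripts lies to the left of that for 1, with medians of 0.533 and 20.2 per kb.

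Calb2 encodes calretinin, a calcium buffer of many amacrine and ganglion cells, and Calb1 encodes calbindin, which marks horizontal cells and part of the amacrine cells. Calb2 (chromosome 8, 110137502 to 110168210) had a mean normalized count of 1567 on a transcript of 1431 bases, which made it the highest of the 10 genes per kb, at 1095. Calb1 (chromosome 4, 15881264 to 15908064) had a count of 505, or 119.5 per kb, so that Calb2 was 9.16-fold higher. Both have coding sequences of similar size, 813 and 783 bases, and 11 exons. Per kb of coding sequence in place of transcript, the levels were 1928 and 645.

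Of the other calcium-binding genes, listed here as a background, 8 of 8 had a mean above 0, as did 19667 of all 25905 genes. The median of the 8 genes, 124.7 per kb, lay close to the level of Calb1. Cabp1, which encodes a modulator of calcium channels, was the highest at 481 per kb, below Calb2. Hpcal1 and Scgn, the latter encoding secretagogin, had 292 and 284 per kb. Necab1 and Necab2 were at 129.9 and 94.6 per kb, and Pvalb, the parvalbumin gene, was at 119.4. Ncald and Hpca had mean normalized counts of 2.40 and 2.82, and their symbols stood for 4 and 2 counted transcripts.

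Both enzymes that make GABA from glutamate were well detected. Gad1 (chromosome 2, 70553072 to 70602014, 17 exons) had a mean normalized count of 2415, or 719.9 per kb. Gad2 (chromosome 2, 22622205 to 22693874, 16 exons) had a count of 794, or 138 per kb, and Gad1 was 5.21-fold higher. Their coding sequences are of nearly the same length, 1779 and 1755 bases. Per kb of coding sequence Gad1 was at 1358 and Gad2 at 452. Gad1 stood above 97.3% and Gad2 above 81.0% of the genes with 1 counted transcript, per kb of transcript.

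Slc6a9 encodes GLYT1, which takes glycine back into glycinergic amacrine cells. It lies on chromosome 4 from 117834506 to 117875198, and its count was 1725, or 496 per kb, below Calb2 and Gad1. The neighbouring gene Ccdc24 lies on the opposite strand over 41.1% of the bases of the counted Slc6a9 transcript and had a mean normalized count of 934. The libraries were made to keep the strand, but the strand setting of the counting is not given in the sources used here, so reads of the 2 genes may not be fully separated. Slc6a5, which encodes the neuronal glycine transporter GLYT2, had a mean normalized count of 2.17 over 2 counted transcripts.

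The other genes of inhibitory transmission gave a graded picture. The vesicular transporter that loads both GABA and glycine, Slc32a1, had 338 per kb. Gad1 was 2.13 times that level, Slc6a9 1.47 times and Gad2 0.409 times. The plasma membrane GABA transporter Slc6a11 had 583 per kb, and Slc6a13, of the same family, had 20.7 per kb. Aldh5a1, an enzyme of GABA breakdown, was at 66.2 per kb. Abat, which starts that breakdown, had a mean normalized count of 9.58 over 2 counted transcripts.

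Among 16 further transcription factors of amacrine and horizontal cells, Pax6 was the highest, at 729 per kb, 2.04 times the level of Prox1. It was followed by Isl1, used by starburst amacrine and bipolar cells, at 161.9 per kb and by Barhl2 at 146 per kb. Bhlhe22, Neurod2 and Ebf1 had 94.3, 69.7 and 49.5 per kb. Onecut3 and Onecut2, the relatives of Onecut1, were at 21.8 and 13.4 per kb, against 23.1 for Onecut1. The mean normalized counts of Neurod6 and Lhx9 were 12.2 and 15.6, the latter over 3 counted transcripts. The remaining 6 factors had mean normalized counts under 10. Of these Ptf1a and Foxn4, which act in the progenitors of both cell types during development, were at 0.239 and 0.178 with 1 counted transcript each. The other 4 were counted over several transcripts, with counts of 8.52 for Tfap2c, 4.25 for Nr4a2 and 0.0605 for Ebf3, while Meis2, over 6 transcripts, was listed at 0.

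Genes listed as markers of amacrine subtypes covered a wide range of levels in whole retina. Which cells their RNA came from was not tested. The starburst genes ran from 23.8 per kb for Slc5a7, the choline transporter, to 44.5 for Megf10, with Chat, the enzyme that makes acetylcholine, at 38.5, Megf11 at 38.9 and Slc18a3, the vesicular acetylcholine transporter, at 30.8. The AII amacrine genes Gjd2, which encodes the gap junction protein connexin 36, and Dab1 had 206 and 149 per kb. The dopaminergic genes were lower. Th, the rate-limiting enzyme of dopamine synthesis, had 13.6 per kb, Slc18a2, the vesicular monoamine transporter, had a mean normalized count of 30.3, and Slc6a3, the dopamine transporter, had a mean normalized count of 0.698. Of the genes of other amacrine types, Penk was the highest at 298 per kb, followed by Npy at 200.3, Cck at 171 and Tac1 at 154. Vip was at 82.5 per kb, Slc17a8 at 40.4, Sst at 39.2, Nos1 at 9.54 and Crh at 7.49. The horizontal cell gene Gja10, which encodes a connexin of horizontal cells, had 18.7 per kb, between Lhx1 and Onecut1. The horizontal list was low apart from Calb1, with a median of 18.7 per kb over 5 genes. The remaining gene of that list, Sept4, was not matched in the table.

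**Figure D3:**
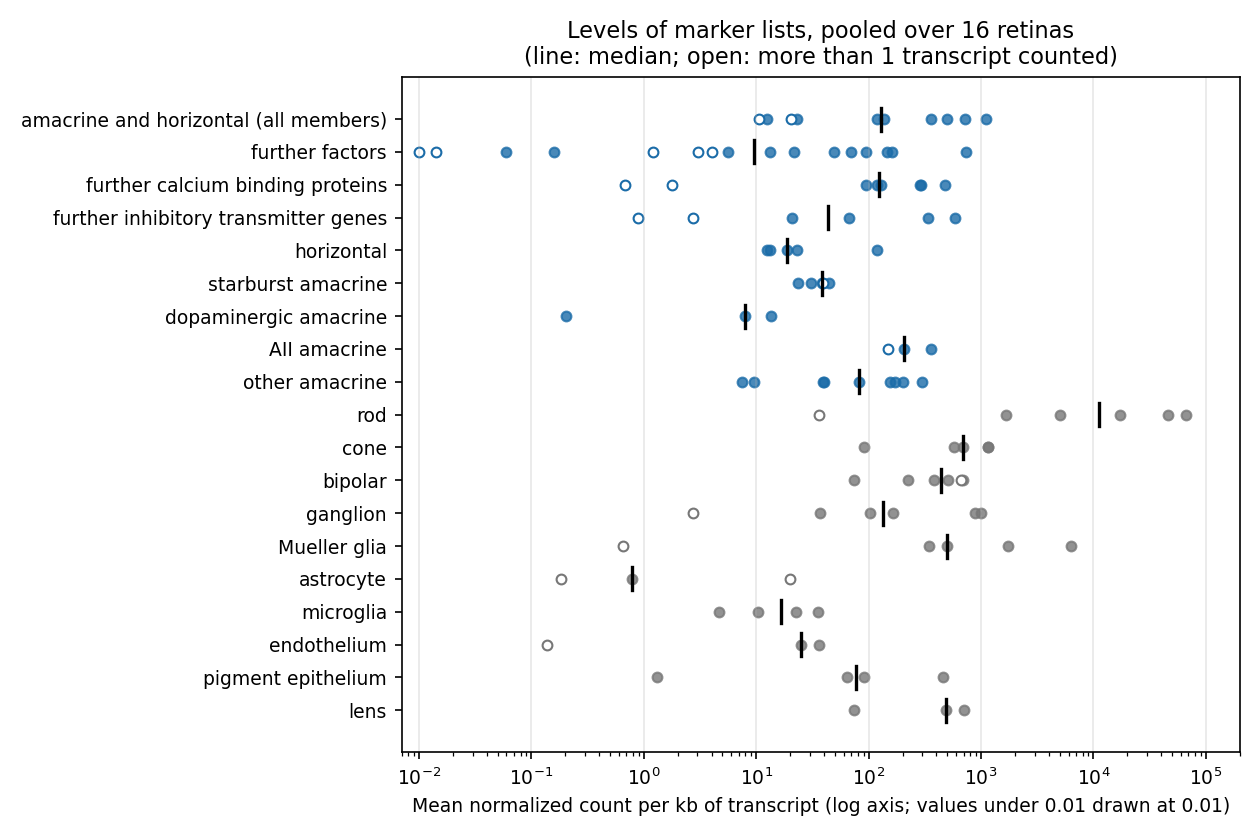
Level of each gene of the marker lists per kb of transcript (logarithmic axis, authors' mean over all 16 libraries), amacrine and horizontal lists in blue and other cell types in grey, with the list median as a black line and genes counted over more than 1 transcript as open points. Rod genes reach 66356 per kb for Gnat1, while the 10 amacrine and horizontal genes lie between 10.7 and 1095 per kb.

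Set beside the markers of the other retinal cells, the 10 genes were, by sum and by median, far below those of rods. Their levels summed to 2993 per kb, and the 6 rod genes to 136863 per kb, 45.7 times as much. Not every rod gene was higher: Nrl, with 2 counted transcripts, had 36.1 per kb, below Calb1 at 119.5. The 5 cone genes summed to 3670 per kb, 1.23 times the members, and the 5 Müller glia genes to 8828, 2.95 times. The 6 bipolar genes, at 2542 per kb, came to 0.849 times the members, and the 6 ganglion cell genes, at 2191, to 0.732 times. The sums rest on few genes: Calb2 and Gad1 make up most of that of the members, and Glul, which encodes glutamine synthetase, most of that of the Müller glia. By medians the members had 129 per kb, against 11198 for rod, 692 for cone, 494 for Müller glia, 442 for bipolar and 133.6 for ganglion cell genes. The sums say nothing of cell numbers, since the genes differ in how strongly each is expressed in its cell. They also depend on the number of genes summed, 10 for the members and 5 or 6 for these other lists.

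Genes listed as markers of tissue next to the retina were also detected, and whether their RNA came from that tissue was not tested. The lens genes Cryaa, Crybb2 and Crygd had 709, 487 and 74.7 per kb. The pigment epithelium genes Ttr, Rgr and Rpe65 had 455, 91.0 and 64.8 per kb, and Best1 had a mean normalized count of 2.72. Of the lists for other cell types, vascular, microglial and astrocyte genes were lower, up to 36.1 per kb for Cldn5, 35.5 for C1qa and 19.9 for Gfap. How much lens, pigment epithelium or these other cell types added to the values of the 10 genes was not tested.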

How the data were processed

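Single-end reads of 16 retinal RNA-Seq libraries, 8 per group, were trimmed by the authors with Trimmomatic, mapped with TopHat2 to an older mouse assembly and counted with HTSeq. The deposited signal value used here is the authors' mean over all libraries of counts divided by the size factors of DESeq2 1.22.2 in R 3.5.1, given for 25905 genes. How the rows per transcript of the count table were joined into rows per gene is not given in the sources used here. The same table holds the authors' log2 fold-changes, standard errors, statistics and p-values, which were not used. The 32 columns of the 2 deposited count tables are named with codes that no label ties to a sample or a group, and were not used, so the planned test of spaceflight against ground control in edgeR could not be run. The transcript names given with the counts were used to number the counted transcripts of each gene and to find their lengths.

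Each gene was given the mean length of its counted transcripts, matched by RefSeq accession to GENCODE M21 on GRCm38, which is not the assembly of the authors. A length was found for 80.9% of the 19667 genes with a mean above 0. Coordinates are those of GRCm38. Percentiles are the share of genes with a lower value. Named are all members, every gene of the lists of factors, calcium-binding, inhibitory transmitter and amacrine subtype genes, and up to 5 genes by level for other cell types. Some genes of the lists are not reported here. Members and lists were chosen with earlier results of these data known. Ranking and scaling were tested on simulated data. Alternatives were coding length, other sets of ranked genes, medians for sums and, added after seeing the data, genes with 1 counted transcript. Scripts ran in Python 3.11.15 (pandas 2.3.3, numpy 2.4.6, matplotlib 3.10.9).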

Additional observations from a re-analysis of the deposited data

How the results depend on the processing

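No paired analysis was possible because the count columns carry no replicate number. For the same reason the planned fits of the group comparison (DESeq2, no filter, other size factors) were not run. The median level of the 10 genes was 129 per kb of transcript, 548 per kb of coding sequence, and 248 for the 8 genes with 1 counted transcript. The order of the 10 genes kept Calb2 and Gad1 first by either length, while Prox1 passed Slc6a9 and Calb1 passed Gad2 by coding length. With no scaling for length, the median share of detected genes below a member by mean normalized count was 87.8%, against 80.6% among genes with a mean of at least 10 and 90.7% among all listed. Taken over the members, medians in place of sums gave 86.9 times for rod, 5.37 for cone, 3.43 for bipolar, 1.04 for ganglion cell and 3.83 for Müller glia genes, so the bipolar and ganglion cell genes moved from below to above the members. With genes of 1 counted transcript alone, in the order rod, cone, bipolar, ganglion cell and Müller glia, the sums were 46.2, 1.24, 0.634, 0.739 and 2.98 times. For those genes the medians were 69.8, 2.79, 1.53, 0.659 and 4.50 times, so there the ganglion cell genes stood below the members. No error is known for these pooled values, so a difference between neighbouring genes could not be set against a spread.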

Other observations

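Low values among the marker lists were more frequent where several transcripts were counted. Of the 105 list genes found in the table, 85 had 1 counted transcript, and 7 of these had a mean normalized count under 10. The other 20 had more, and 12 of these were under 10. Over coding genes of known length, the shares under 10 were 38.5% with 1 transcript, 69.9% with 2 and 74.9% with 3 or more. The cases with several counted transcripts reach beyond amacrine and horizontal genes to Rlbp1, a defining gene of Müller glia, at 0.650 per kb of transcript, Rbpms, which marks ganglion cells, at 2.74 per kb, and Pecam1, an endothelial adhesion gene, at 0.137 per kb. Glul, Thy1 and Cdh5, markers of the same cell types with 1 counted transcript, were at 6252, 997 and 24.9 per kb. Other genes of the lists went the other way. Trpm1, the channel of ON bipolar cells, had 663 per kb and Dab1 149 per kb with 2 counted transcripts each, while Best1, Aif1 and Pax2, at 1.31, 4.66 and 0.790 per kb, had 1. The genes named here were chosen after their values were seen, and the cause was not tested.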
